A study of Saccharomyces cerevisiae with 8 samples.

Results

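The 56 genes described here are budding yeast genes of amino acid biosynthesis together with GCN4, the gene of the transcription activator of these pathways. They were taken from a fixed list of names, matched to the deposited expression table by systematic ID. All 56 had a row of their own among the 7126 rows, and all 56 passed the filter on low values, which asked for a mean of 1 FPKM or more across the 8 libraries. The members fall into 10 pathways (histidine 6 genes, arginine 6, lysine 7, leucine 3, isoleucine and valine 7, the aromatic amino acids 12, serine 4, threonine and homoserine 5, proline 3, asparagine 2) plus GCN4 itself.

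The study sequenced mRNA of strains that make either the Gcr1(U) or the Gcr1(S) form of Gcr1, a transcription factor best known as an activator of glycolytic genes. Strain U (JHY9100) carries a GCR1 deletion that the labels give as 1-574, and strain S (JHY9200) carries a deletion given as 4-742, so every library comes from cells with an altered GCR1 gene in the BY4741 background and no library from cells with the unaltered gene. Each strain was sampled at 6 h, in exponential growth on YPD medium with 2% glucose, and at 12 h, past the diauxic shift, the change from growth on glucose to growth on the ethanol made from it. Each of the 4 groups has 2 libraries, numbered 1 and 2 by the labels, which do not say whether they came from separate cultures. The p-values therefore measure only the spread between these libraries, which may be technical. A lower value of a transcript in a bulk sample cannot be told apart from a rise of the rest of the RNA. YPD is a rich medium whose peptone and yeast extract supply amino acids.

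Wild-type yeast can make all its amino acids, and most of the enzymes are induced together when a single amino acid runs short. This general amino acid control works through Gcn4: uncharged tRNA activates the kinase Gcn2, which phosphorylates the initiation factor eIF2, and the short reading frames in the GCN4 leader then let ribosomes reach the GCN4 start codon. Gcn4 is thus known to be controlled mainly in translation, so the level of its transcript is not a measure of the protein, which was not measured here.

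Gcn4 is known to bind the 7 bases TGACTCA. Searched on both strands in the 500 bases upstream of the start codon (RefSeq sequence, build R64), this motif was found for 30 of the 56 members, 53.6%, against 241 of 6006 coding genes, 4.01%. Its first 6 bases, TGACTC, which every full motif contains, were found for 39 members, 69.6%, against 12.7% of coding genes. Such a match is a description of the sequence and no measurement of binding. The windows below, each 27 bases read 5′ to 3′ on the strand of the gene with the motif in capitals (TGAGTCA where it lies on the opposite strand), are shown because their genes carry the results: the arginine and histidine genes and HOM3, ASN1 and LEU4 with different values in the 2 libraries of 6 h, and BAT1 and ASN2 with a large and even drop at 12 h.
ARG1: gattttttagTGACTCAtgtcgcattt
ARG3: ggtcacgtcgTGACTCAtatgctttct
ARG4: agtagatgaaTGACTCActttttggat
CPA1: gaagggtgttTGACTCAtcatcgcatc
HIS1: agcttccaagTGAGTCAcctctaccgt
HIS4: ccatgcacagTGACTCAcgttttttta
HOM3: ttcaggcccaTGACTCAccttttcttt
ASN1: atgtaacattTGACTCAttctgtaaac
LEU4: tacgtgtaagTGACTCAgttctttcaa
BAT1: tgccttcttaTGACTCAaaattctatt
ASN2: ttcttagcatTGACTCAtggcaagatt
In R64 the windows lie at chrXV:218856-218882 (plus strand) for ARG1, chrX:268475-268501 (plus) for ARG3, chrVIII:141565-141591 (minus) for ARG4, chrXV:882405-882431 (plus) for CPA1 and chrV:265953-265979 (minus) for HIS1. Those of HIS4, HOM3 and ASN1 lie at chrIII:68516-68542 (minus), chrV:258225-258251 (minus) and chrXVI:822383-822409 (plus). Those of LEU4, BAT1 and ASN2 lie at chrXIV:426839-426865 (minus), chrVIII:517351-517377 (plus) and chrVII:739737-739763 (plus). The motif ended 95 bases before the start codon in LEU4, 165 in BAT1 and 478 in CPA1, the farthest of these genes. BAT2, SER3 and ARO3 had no match in this window.

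The deposited values are FPKM, which are scaled to gene length and library size, so that levels of different genes can be set side by side. They summed to between 1504396 and 1548312 per library, and the read depth behind them is unknown. The genes that BY4741 lacks, LEU2, URA3 and MET15, were listed at 0 in all 8 libraries, as was MATALPHA1 of the other mating type. HIS3, checked together with these genes, was not at 0, which does not show that this gene is intact. It ran from 68.8 FPKM in replicate 1 of S at 12 h to 283 in replicate 2 of U at 6 h. GCR1 ranged from 30.2 to 60.9 FPKM in the U libraries and from 58.9 to 143 FPKM in those of S. The libraries of replicate 1 at 6 h stood apart in both strains: HSP82, a heat-shock chaperone, was at 1025 FPKM in replicate 1 and 23.6 in replicate 2 of U, and at 973 and 21.2 in S. All 6 heat-shock genes examined were lower in replicate 2 at 6 h, by -1.70 to -5.38 on the log2(FPKM + 1) scale in U and by -3.11 to -5.77 in S. At 6 h, 14 members were higher in replicate 2 by at least 1 on this scale in both strains. Each library's value is given below for them, except for HIS4, ARG5,6, LYS2 and ILV5.

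GCN4 transcript rose after the diauxic shift in both strains. GCN4 (YEL009C, chrV:138918-139763) stood at 1949 and 1918 FPKM in U and at 1870 and 1876 in S at 6 h, in the order of replicates 1 and 2, against 4297 and 4012 in U and 4129 and 3689 in S at 12 h. All 4 libraries of 12 h were above all 4 of 6 h, and the replicates of a group lay close together. The rise was 1.10 ± 0.15 (log2 fold change ± SE, n = 2 against 2) in U and 1.06 ± 0.15 in S, or 2.15-fold and 2.08-fold, with adjusted p = 0.00174 and 0.002 (limma on log2(FPKM + 1), Benjamini-Hochberg adjustment over 6339 rows). GCN4 had the highest level of all members in every library.

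Most of the enzyme genes moved the other way. In U, 34 of the 56 members fell from 6 h to 12 h (60.7%) and 5 rose (8.93%), at an adjusted p under 0.05, against 21.7% of all rows tested that fell and 33.5% that rose. In S, 35 members fell (62.5%) and 3 rose (5.36%), against 22.9% and 33.2% of all rows. The same 34 members fell in both strains, and ARG8, BAT2 and GCN4 rose in both. CPA1 and LEU4 passed the test as higher in U, PHA2 passed as lower in S, and 16 members passed in neither strain. The median log2 fold change was -1.06 in U and -1.05 in S over the members, beside 0.26 and 0.23 over all rows tested.

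The shift of all rows depends on the scaling: with median-of-ratios scaling the median over all rows was 0.02 in both strains, and the share of calls that were higher went from 60.7% to 48.5% in U and from 59.2% to 48.8% in S. Under that scaling 36 members fell in each strain. Over all rows it gave 3432 calls in U, 1664 of them higher, against 3503 and 2126 in the main fit. In S it gave 3477 calls, 1696 of them higher, against 3557 and 2107. More of all rows therefore fell under that scaling too. The smaller counts of members that rose depended on single libraries, and in U the 5 became 2 without replicate 1 of U at 6 h or of U at 12 h, and 3 without replicate 2 of U at 12 h or without either S library of 12 h. Of the falls, those of HIS4, HIS5, LEU1, ILV5, ARO4, TRP2, TRP3, TRP5, HOM3, HOM6 and PRO2 in U lost the call under at least 1 of 18 alternative settings, and in S those of HIS4, HIS5, ILV5, ARO4, TRP2, TRP3, TRP5, PHA2, SER1, HOM3, HOM6 and PRO3. Of the 12 members known as mitochondrial enzymes (among them the ILV genes, BAT1, LEU4 and ARG8), 7 fell in U with a median over the 12 of -1.03, and of the 43 other enzymes 27 fell, with a median of -1.10.

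**Figure D1:**
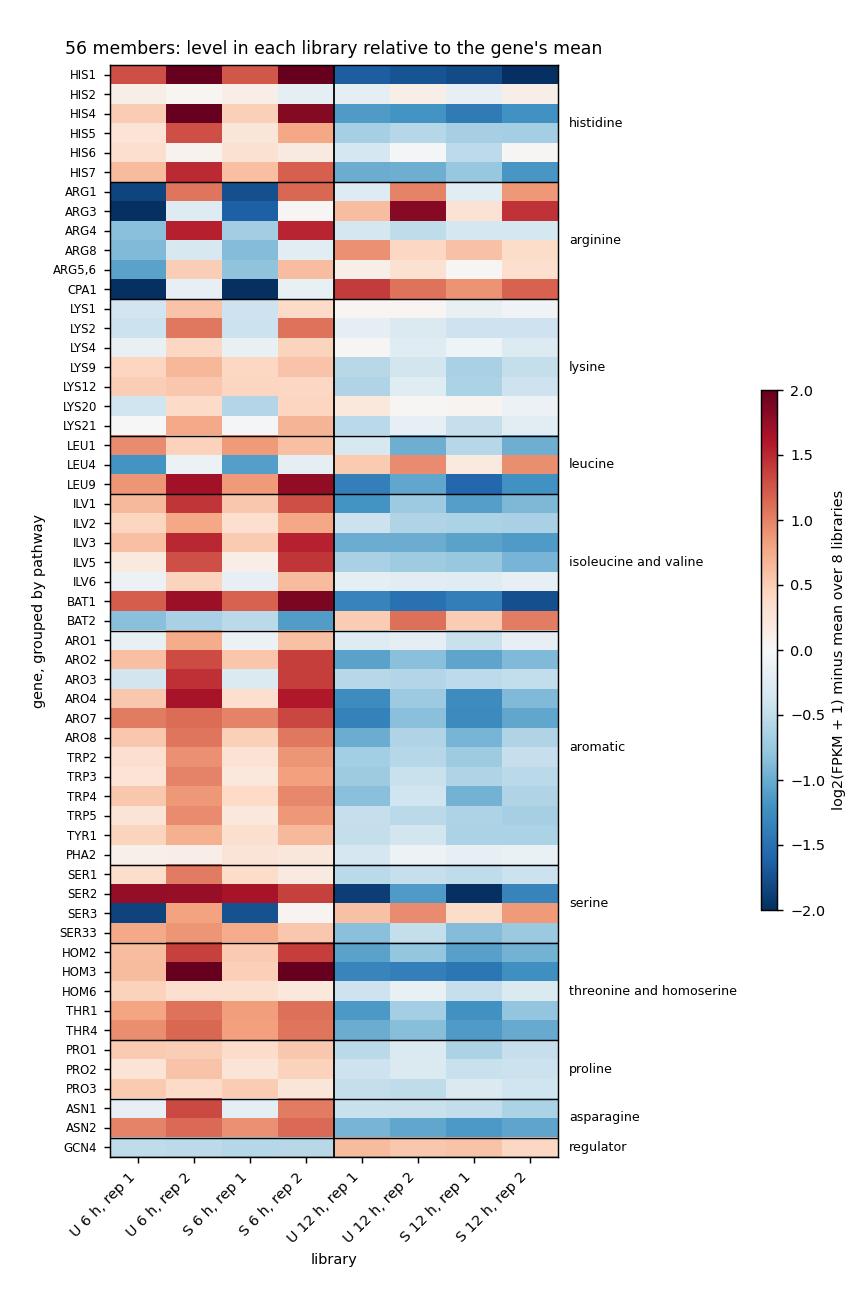
FPKM of the 56 members in each of the 8 libraries as log2(FPKM + 1) minus the member's own mean over the 8 libraries, in order of pathway, with the colours ending at -2 and 2. Most rows are high at 6 h, often most so in replicate 2, and low at 12 h, while GCN4, BAT2, ARG8, CPA1 and LEU4 are high at 12 h.

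**Figure D2:**
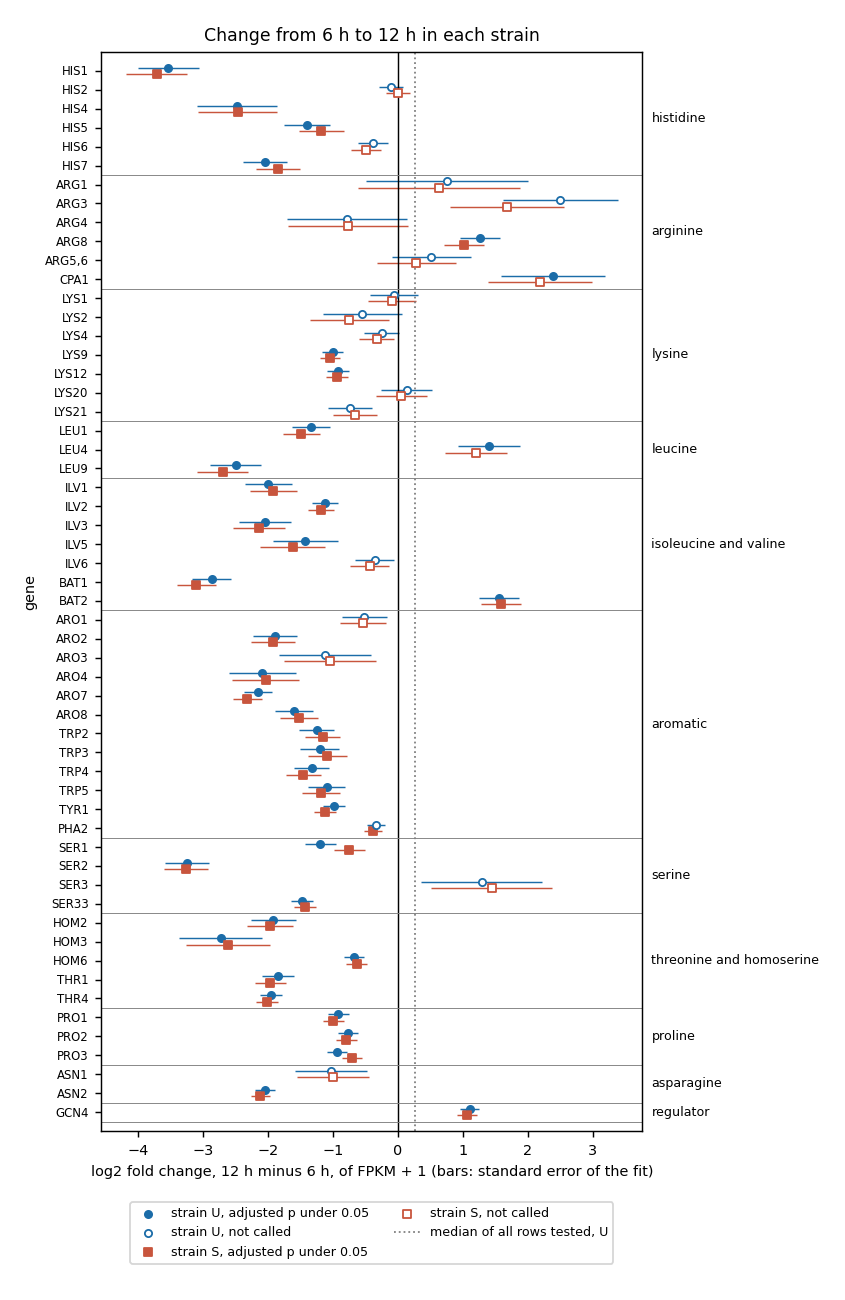
Log2 fold change of 12 h minus 6 h for each member in U and in S on the log2(FPKM + 1) scale, with the standard error of the limma fit, by pathway. The lowest values are those of HIS1, -3.54 in U and -3.72 in S, and the arginine genes lie mostly above 0.

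Of the 6 histidine genes, 4 fell in both strains and none rose. HIS1 encodes ATP phosphoribosyltransferase, which starts the pathway and is the step that histidine inhibits. HIS1 stood at 640 and 1393 FPKM in U and 614 and 1302 in S at 6 h, against 82.6 and 77.6 in U and 74.8 and 59.6 in S at 12 h. The groups did not overlap, although the libraries of 6 h differed by more than 2-fold. The fall was -3.54 ± 0.47 in U (limma, adjusted p = 0.00144) and -3.72 ± 0.47 in S (adjusted p = 0.00122), the lowest of all members. HIS4, whose product carries 3 activities of the pathway, changed by -2.48 in U, a call lost without replicate 2 of U at 6 h or either U library of 12 h, and HIS7, the glutamine amidotransferase, by -2.05; HIS5, an aminotransferase, also fell. HIS2, the histidinol phosphatase gene, lay at the other end: it stood at 91.3 and 87.1 FPKM in U and 92.4 and 74.1 in S at 6 h, against 74.7 and 91.9 in U and 75.5 and 91.3 in S at 12 h. Its groups overlapped in both strains, with log2 fold changes of -0.11 and 0.00, and HIS6 had -0.39 and -0.50 without passing the test.

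The arginine genes were the only pathway in which no member passed the test as lower. Of the 6 genes, 2 rose in U and 1 in S. Of all rows tested, 33.5% rose and 21.7% fell in U, and 33.2% and 22.9% in S. The rises are thus not above the share of all rows. ARG8, acetylornithine aminotransferase of the mitochondrion, rose by 1.26 ± 0.31 in U and 1.01 ± 0.31 in S (limma, adjusted p = 0.0146 and 0.0317). The call was lost in U without replicate 1 of U at 6 h or at 12 h, and in S without replicate 1 of S at 6 h, without either S library of 12 h and under both other scalings. CPA1, the small subunit of the carbamoyl phosphate synthetase that serves arginine, stood at 110 and 429 FPKM in U and 109 and 436 in S at 6 h, against 1271 and 1027 in U and 903 and 1091 in S at 12 h. All libraries of 12 h were above all of 6 h, by 2.38 ± 0.80 in U (limma, adjusted p = 0.0436) and 2.18 ± 0.80 in S (adjusted p = 0.057), and leaving out single libraries gave 1.41 to 3.36 in U, with the call lost without replicate 1 of U at 6 h, without any 1 of the 4 libraries of 12 h and with median-of-ratios scaling. CPA1 was picked for these values.

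ARG3, ornithine carbamoyltransferase, had the highest log2 fold change of all members in U. It stood at 3.22 and 16.3 FPKM in U and 5.68 and 19.9 in S at 6 h, against 30.7 and 72.3 in U and 24.3 and 55.6 in S at 12 h. The groups did not overlap, but the difference of 2.50 ± 0.88 in U and 1.68 ± 0.88 in S did not pass the test (limma, adjusted p = 0.0508 and 0.15). Leaving out single libraries gave 1.48 to 3.51 in U and 0.85 to 2.50 in S, and in U the difference passed under 6 of 18 settings, among them without replicate 2 of U at 6 h or either S library of 6 h. ARG4, argininosuccinate lyase, stood at 89.3 and 471 FPKM in U and 98.3 and 457 in S at 6 h, against 125 and 112 in U and 124 and 125 in S at 12 h, so that the libraries of 12 h lay between the 2 of 6 h in each strain. ARG4 had -0.79 ± 0.92 in U and -0.77 ± 0.92 in S without passing the test. Leaving out single libraries gave -1.98 to 0.40 for ARG4 in U. With a replicate block within each time ARG4 passed as lower in U (limma, adjusted p = 0.000745). ARG1, argininosuccinate synthetase and the widest spread of all members, stood at 23.4 and 183 FPKM in U and 24.7 and 192 in S at 6 h, against 72.2 and 174 in U and 73.8 and 158 in S at 12 h; it too was picked for these values. Its log2 fold change of 0.75 ± 1.25 in U ran from -0.70 to 2.21 as single libraries were left out. ARG5,6, whose product is cut into acetylglutamate kinase and reductase, had 0.51 in U and 0.28 in S and did not pass either.

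**Figure D3:**
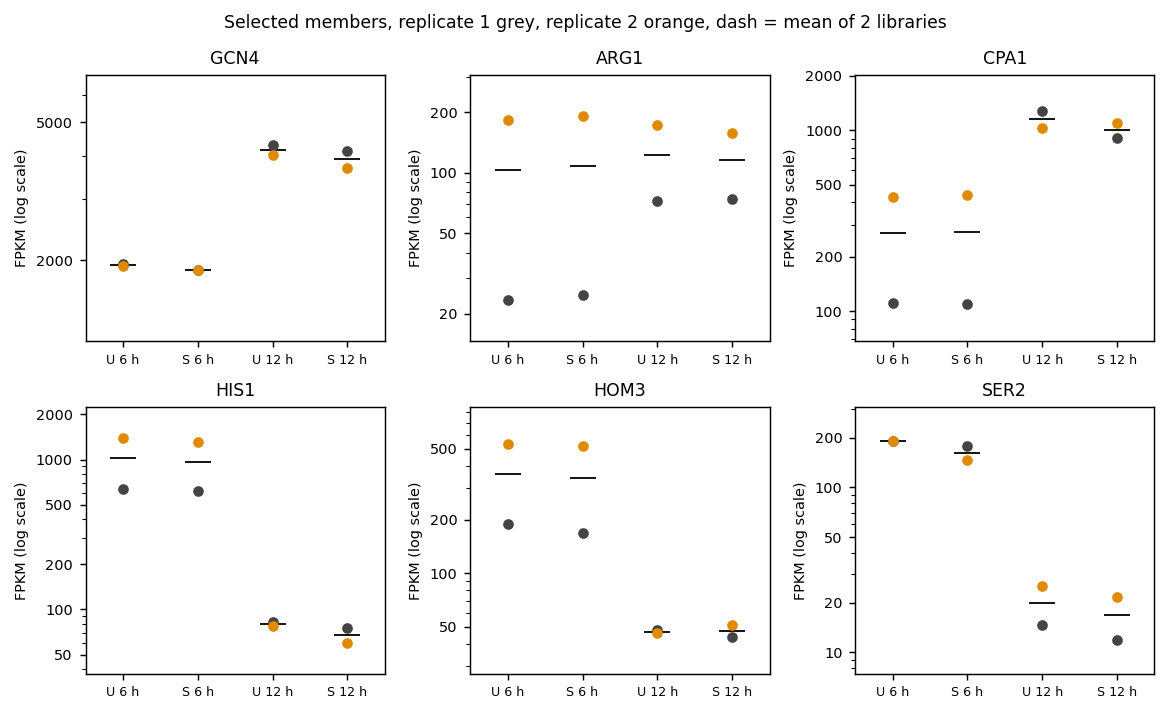
FPKM in each library on a log axis for GCN4, ARG1, CPA1, HIS1, HOM3 and SER2, with replicate 1 in grey, replicate 2 in orange and a dash at the mean of the 2 libraries. GCN4 and CPA1 are higher and HIS1, HOM3 and SER2 lower in every library of 12 h than in any of 6 h, whereas ARG1 spans 23.4 to 183 FPKM between the 2 libraries of U at 6 h.

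The 7 lysine genes had the smallest median change of the pathways, -0.55 in U and -0.67 in S, and 2 of them fell in each strain. That count is near the share of all rows tested that fell, 21.7% in U and 22.9% in S. LYS9, saccharopine dehydrogenase of the glutamate-forming step, fell: it stood at 148 and 172 FPKM in U and 145 and 161 in S at 6 h, against 73.6 and 83.7 in U and 69.0 and 77.5 in S at 12 h. The groups did not overlap, and the changes were -1.01 ± 0.16 and -1.05 ± 0.16 (limma, adjusted p = 0.00277 and 0.00239). LYS12, homoisocitrate dehydrogenase, was the other call, at -0.93 in U and -0.94 in S. LYS1, LYS2 and LYS4, the last saccharopine dehydrogenase, the aminoadipate reductase and homoaconitase, had -0.07, -0.55 and -0.25 in U and passed in neither strain. Leaving out single libraries gave -1.29 to 0.19 for LYS2 in U.

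Homocitrate synthase, which starts the lysine pathway, is encoded by LYS20 and LYS21. LYS20 stood at 151 and 261 FPKM in U and 133 and 269 in S at 6 h, against 231 and 203 in U and 208 and 184 in S at 12 h. LYS21 stood at 149 and 252 FPKM in U and 145 and 238 in S at 6 h, against 102 and 132 in U and 107 and 127 in S at 12 h. LYS20 overlapped between the times and LYS21 did not, and neither passed the test. Their coding sequences were identical at 88.3% of aligned positions and shared a run of 278 bases, longer than the reads of 100 cycles, so the split of reads between them is uncertain.

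In leucine synthesis the duplicated starting enzyme was lower in 1 gene and higher in the other at 12 h. LEU4 and LEU9 encode isopropylmalate synthases, with LEU4 known as the main one. LEU4 stood at 219 and 464 FPKM in U and 235 and 442 in S at 6 h, against 728 and 975 in U and 579 and 955 in S at 12 h. LEU9 stood at 111 and 194 FPKM in U and 108 and 206 in S at 6 h, against 22.4 and 28.5 in U and 19.5 and 25.2 in S at 12 h. In neither gene did the groups overlap. LEU4 rose by 1.40 ± 0.48 in U (limma, adjusted p = 0.0461), but in S it had 1.20 ± 0.48 without passing the test (adjusted p = 0.0723), and in U the call was lost under 8 of 18 alternative settings, among them leaving out replicate 1 of U at 6 h (0.86), any 1 of the 4 libraries of 12 h and both 6 h libraries of replicate 1. LEU9 fell by -2.50 ± 0.39 in U and -2.70 ± 0.39 in S (limma, adjusted p = 0.00273 and 0.00201) and was called under all 18. LEU1, isopropylmalate isomerase, fell by -1.34 and -1.49. LEU2, an enzyme gene of the same pathway that BY4741 lacks, was at 0 in all 8 libraries, so the pathway is incomplete in these cells.

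Of the 7 isoleucine and valine genes, 5 fell in both strains, ILV6 did not pass and BAT2, the cytosolic aminotransferase, rose. BAT1 and BAT2 encode the mitochondrial and the cytosolic branched-chain aminotransferase. BAT1 stood at 633 and 895 FPKM in U and 624 and 1014 in S at 6 h, against 108 and 96.5 in U and 105 and 80.2 in S at 12 h. BAT2 stood at 197 and 223 FPKM in U and 240 and 161 in S at 6 h, against 502 and 756 in U and 497 and 712 in S at 12 h. At 6 h BAT1 was above BAT2 in every library, and at 12 h BAT2 was above BAT1 in every library. BAT1 changed by -2.87 ± 0.30 in U and -3.11 ± 0.30 in S (limma, adjusted p = 0.000607 and 0.000447). BAT2 rose by 1.55 ± 0.31 in U and 1.59 ± 0.31 in S (limma, adjusted p = 0.00659 and 0.0059), and both genes were called under all 18 alternatives. ILV1, threonine deaminase, ILV2, acetolactate synthase, and ILV3, dihydroxyacid dehydratase, fell by -1.92, -1.19 and -2.14 in S. ILV5, the reductoisomerase, fell by -1.43 in U with adjusted p = 0.0488 (limma), a call lost under 7 of the 18 settings, among them leaving out replicate 2 of U at 6 h (-0.88) or any 1 of the 4 libraries of 12 h, and in S the call was lost under 6. ILV6, the regulatory subunit of acetolactate synthase, had -0.36 in U and -0.44 in S and did not pass. The known motif of Leu3, the activator of leucine and valine genes, is CCG and CGG with 4 free bases between them. It reads the same on both strands and occurred in the 500 bases upstream of 9 members, 16.1%, against 3.28% of coding genes. LEU1, LEU9, ILV2, ILV5, BAT1 and BAT2 were among the 9, as were ARO7, HOM2 and ASN1 of other pathways. LEU4, ILV1, ILV3 and ILV6 had no match.

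Among the 12 aromatic genes, 9 fell in U and 10 in S. ARO7, chorismate mutase at the branch to phenylalanine and tyrosine, had the lowest value of the pathway: it stood at 173 and 183 FPKM in U and 168 and 214 in S at 6 h, against 32.5 and 46.8 in U and 34.3 and 40.5 in S at 12 h. The groups did not overlap, and the fall was -2.16 ± 0.22 in U and -2.32 ± 0.22 in S (limma, adjusted p = 0.000594 and 0.000454). ARO2, chorismate synthase, and ARO8, an aromatic aminotransferase, fell by -1.90 and -1.60 in U. The 4 members of the tryptophan branch, TRP2, TRP3, TRP4 and TRP5, fell by -1.33 to -1.10 in U and by -1.46 to -1.09 in S, whereas TRP1, an enzyme of the same branch and no member, rose by 1.28 in U and 1.27 in S (limma, adjusted p = 0.00153 and 0.00159). TYR1, prephenate dehydrogenase, fell by -0.99 and -1.12. PHA2, prephenate dehydratase, moved least: it stood at 37.9 and 39.1 FPKM in U and 42.6 and 41.8 in S at 6 h, against 27.8 and 32.9 in U and 31.6 and 32.2 in S at 12 h. Its groups did not overlap, and -0.39 ± 0.14 in S passed the test (limma, adjusted p = 0.0464) while -0.34 ± 0.14 in U did not (adjusted p = 0.0731); the call in S was lost under 12 of 18 settings, among them leaving out any single library. ARO1, whose product carries 5 steps of the common pathway, had -0.52 in U and -0.54 in S and did not pass.

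The entry to the aromatic pathway is catalysed by the DAHP synthases Aro3 and Aro4, known to be inhibited by phenylalanine and by tyrosine. ARO3 stood at 228 and 819 FPKM in U and 241 and 770 in S at 6 h, against 201 and 196 in U and 205 and 210 in S at 12 h. ARO4 stood at 518 and 1113 FPKM in U and 448 and 1078 in S at 6 h, against 148 and 213 in U and 148 and 192 in S at 12 h. In both genes every library of 12 h was below every library of 6 h, and replicate 2 of 6 h was the highest. ARO4 fell by -2.09 ± 0.52 in U (limma, adjusted p = 0.0155; -1.54 and no call without replicate 2 of U at 6 h), whereas ARO3, with -1.12 ± 0.71, did not pass (adjusted p = 0.22). ARO3 had -2.04 in U without both 6 h libraries of replicate 1 (limma, adjusted p = 0.000976) and -0.20 without replicate 2 of U at 6 h.

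In the serine pathway 3 of 4 genes fell in both strains. SER2, phosphoserine phosphatase, which makes serine in the last step, stood at 192 and 191 FPKM in U and 179 and 146 in S at 6 h, against 14.5 and 25.2 in U and 11.8 and 21.6 in S at 12 h. The groups were far apart, and the fall was -3.25 ± 0.34 in U and -3.26 ± 0.34 in S (limma, adjusted p = 0.000651 and 0.000646). SER1, the transaminase, fell by -1.20 in U and -0.75 in S, and the call in S (limma, adjusted p = 0.0364) was lost under 6 of 18 settings, those that left out any 1 S library or either U library of 12 h.

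SER3 and SER33 encode the phosphoglycerate dehydrogenases that start serine synthesis. SER33 stood at 144 and 158 FPKM in U and 142 and 123 in S at 6 h, against 47.1 and 60.7 in U and 46.1 and 50.6 in S at 12 h. SER3 stood at 51.4 and 331 FPKM in U and 56.1 and 197 in S at 6 h, against 283 and 363 in U and 243 and 341 in S at 12 h. SER33 fell without overlap, by -1.48 ± 0.17 in U and -1.44 ± 0.17 in S (limma, adjusted p = 0.000952 and 0.00108), while SER3 overlapped in U and its 1.29 ± 0.93 and 1.44 ± 0.93 did not pass the test (adjusted p = 0.274 and 0.225). The value of SER3 in U was -0.05 without replicate 1 of U at 6 h and 2.62 without replicate 2, and in S it was 0.54 and 2.34 without the same libraries of S. SRG1, a noncoding RNA transcribed across the SER3 promoter and known to repress SER3 when serine is plentiful, has a row of its own. It stood at 90.8 and 108 FPKM in U and 107 and 134 in S at 6 h, against 822 and 965 in U and 721 and 954 in S at 12 h, a rise of 3.16 ± 0.22 and 2.78 ± 0.22 (limma, adjusted p = 0.000172 and 0.000239). SRG1 and SER3 overlap by 77 bases on the same strand in R64, so reads from that stretch cannot be told apart between them.

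All 5 genes of the threonine and homoserine pathway fell in both strains. HOM3, aspartate kinase, which opens the route from aspartate, stood at 188 and 534 FPKM in U and 168 and 520 in S at 6 h, against 47.8 and 46.1 in U and 43.6 and 51.1 in S at 12 h. HOM6, homoserine dehydrogenase, stood at 650 and 596 FPKM in U and 590 and 552 in S at 6 h, against 354 and 427 in U and 345 and 389 in S at 12 h. Neither gene overlapped between the times. HOM3 fell by -2.73 ± 0.64 in U and -2.62 ± 0.64 in S (limma, adjusted p = 0.0121 and 0.0139), a call lost in each strain without its replicate 2 of 6 h or either of its libraries of 12 h, and HOM6 by -0.68 ± 0.16 and -0.64 ± 0.16 (adjusted p = 0.0141 and 0.0175). HOM2, aspartic semialdehyde dehydrogenase, THR1, homoserine kinase, and THR4, threonine synthase, lay between -2.02 and -1.85 in both strains.

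The 3 proline genes fell to a similar and smaller extent. PRO3, pyrroline-5-carboxylate reductase, stood at 380 and 343 FPKM in U and 376 and 312 in S at 6 h, against 190 and 186 in U and 217 and 200 in S at 12 h. PRO2, gamma-glutamyl phosphate reductase, stood at 208 and 256 FPKM in U and 206 and 237 in S at 6 h, against 129 and 140 in U and 126 and 128 in S at 12 h. Neither overlapped, and the changes in U were -0.94 ± 0.16 and -0.77 ± 0.16 (limma, adjusted p = 0.00354 and 0.00837). PRO1, gamma-glutamyl kinase, fell by -0.92 in U and also passed in S.

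Asparagine is made by the synthetases Asn1 and Asn2. ASN2 stood at 451 and 498 FPKM in U and 427 and 496 in S at 6 h, against 119 and 110 in U and 102 and 109 in S at 12 h. ASN1 stood at 361 and 1011 FPKM in U and 357 and 828 in S at 6 h, against 294 and 295 in U and 285 and 259 in S at 12 h. Both were lower in every library of 12 h than in any of 6 h. ASN2 fell by -2.05 ± 0.15 in U and -2.12 ± 0.15 in S, with the lowest adjusted p of all members (limma, 0.000213 and 0.000191). ASN1 had -1.03 ± 0.55 in U and did not pass (limma, adjusted p = 0.157 in U and 0.17 in S), and, without both 6 h libraries of replicate 1, -1.77 in U with adjusted p = 0.00148. Without replicate 2 of U at 6 h it had -0.29.

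**Figure D4:**
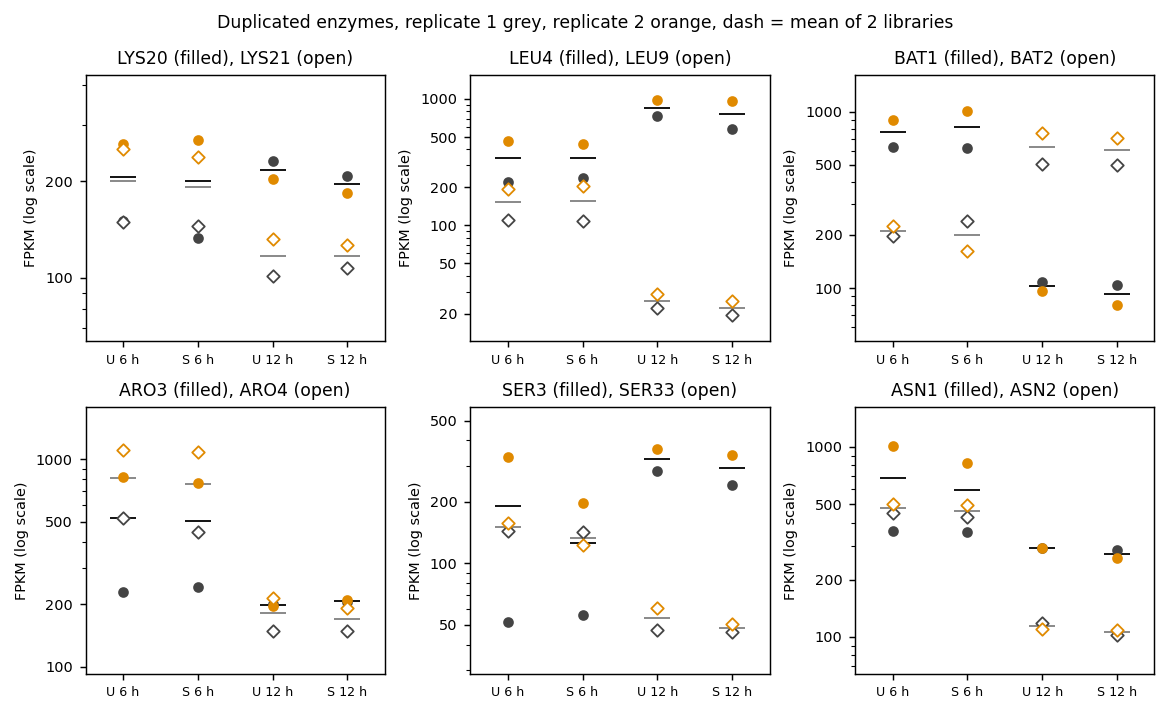
FPKM in each library on a log axis for the 6 pairs of duplicated enzymes, the gene named first with filled and the other with open symbols, replicate 1 in grey, replicate 2 in orange and a dash at the mean. BAT1 and BAT2 exchange their order between 6 h and 12 h, LEU4 and LEU9 move apart, and the 2 replicates of 6 h differ for ARO3, ASN1 and SER3.

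Outside LYS20 and LYS21, the longest run shared by a pair was 83 bases, in ASN1 and ASN2, which is shorter than the reads. Whether the 2 genes of a pair changed differently was not tested.

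The 2 libraries of 6 h differed for many members, and by like amounts in both strains. The difference of replicate 2 minus replicate 1 on the log2(FPKM + 1) scale had a median of 0.69 in U and 0.63 in S over the 56 members, beside -0.02 and -0.14 over all rows tested. In U, 16 members were higher in replicate 2 by at least 1 (28.6%), against 3.04% of all rows, and in S also 16, against 3.44%. Both strains showed it for 14 members, against 1.47% of all rows, and these were HIS1, HIS4, ARG1, ARG3, ARG4, ARG5,6, CPA1, LYS2, ILV5, ARO3, ARO4, SER3, HOM3 and ASN1. None of the 56 was lower in replicate 2 by as much in either strain, against 4.59% of all rows in U and 8.42% in S.

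The arginine genes had the largest median difference, 1.99 in U and 1.82 in S, and ARG1 the largest of all members, 2.92 and 2.91. GCN4 transcript did not share it, with -0.02 and 0.00. The 30 members with TGACTCA upstream had medians of 0.93 and 0.88, and 12 of them were among the 14; the 26 members without it had 0.28 and 0.29. Among rows that are no members, the 206 with the motif had medians of 0.05 and -0.07, with 8 rows higher by at least 1 in both strains, and the 5493 without it had -0.04 and -0.16, with 49 such rows. MBF1, known as a bridging coactivator of Gcn4, ran the other way and was named after its values were seen: it stood at 1594 and 276 FPKM in U and 1521 and 249 in S at 6 h. The heat-shock genes were also high in replicate 1, as given above, and their part in the difference of the members was not tested.

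At 12 h the replicates lay closer, and the median difference over the members was 0.12 in U and 0.14 in S. Of the 56 members, ARG1 and ARG3 were higher in replicate 2 by at least 1 in both strains there, 3.57% against 0.82% of all rows. In U the mean of 12 h was below both libraries of 6 h for 42 members, between them for 8 and above both for 6, and in S for 42, 7 and 7. Over all rows tested it was below both for 35.5% in U and 36% in S. The count of members that fell was larger without both 6 h libraries of replicate 1. In each strain it was smaller without that strain's replicate 2 of 6 h. The shares of all rows that fell in these fits are not given, so the counts may follow a change over all rows.

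**Figure D5:**
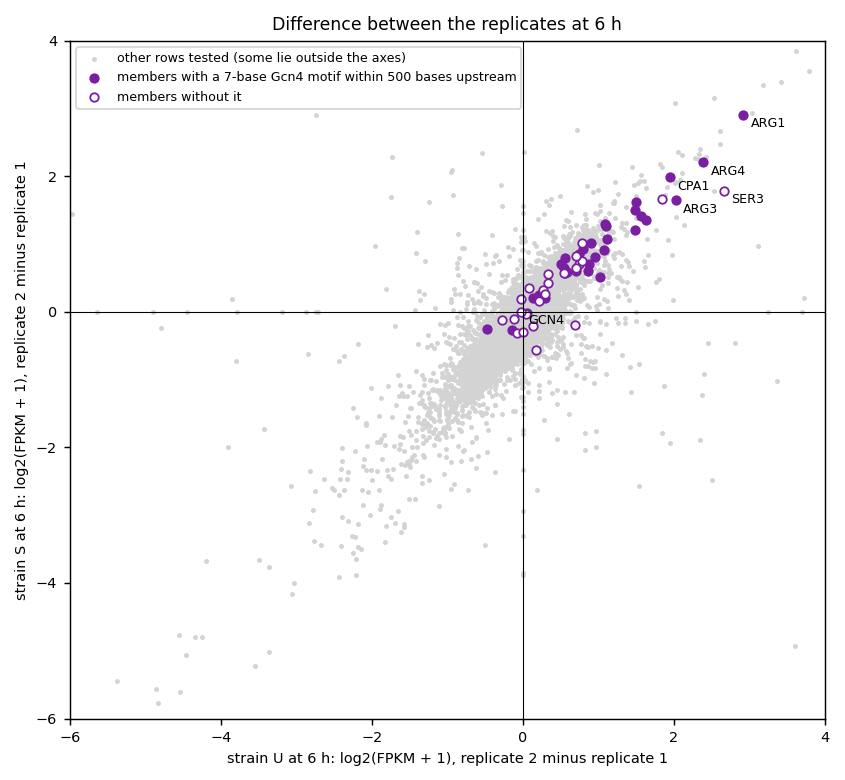
Difference of replicate 2 minus replicate 1 at 6 h on the log2(FPKM + 1) scale. Strain U is on the horizontal and strain S on the vertical axis. The other rows tested are in grey, some of them outside the axes. The members are in purple, filled where the 7-base Gcn4 motif lies upstream. Members spread to the upper right, up to ARG1 at 2.92 and 2.91, while GCN4 lies at -0.02 and 0.00.

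No member passed the test between the strains. This held for S minus U at 6 h, where 0.0789% of all rows passed, at 12 h, where 0.126% passed, and for the difference of the time changes, where 0.0789% passed (limma, adjusted p under 0.05). In each of these 0 members had an unadjusted p under 0.05 (limma), against 56, 61 and 51 of the 6339 rows tested. The 0 is therefore near the share of all rows and no result about the members. The count stayed at 0 under every alternative setting run. At 6 h the log2 differences ran from -0.41 ± 0.24 for SER1 to 0.47 ± 0.88 for ARG3, and at 12 h from -0.35 for ARG3 to 0.15 ± 0.16 for PRO3. GCN4 differed by -0.05 at 6 h, with a 95% interval from -0.41 to 0.32, and by -0.09 at 12 h, with an interval from -0.46 to 0.28.

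These intervals do not show that the strains act alike. They come from the fit without a replicate block, so their width holds any difference between replicates that both strains share. The intervals lay within -1 and 1 for 36 of the 56 members at 6 h and for 36 at 12 h. In the difference of the time changes they did so for 17 members. The widest belonged to ARG1, from -2.96 to 3.10 at 6 h, although its values in U and S were close within a replicate number, 23.4 and 24.7 FPKM in replicate 1 and 183 and 192 in replicate 2. SER1, with the lowest difference, stood at 563 FPKM in U and 311 in S in replicate 2 and at 349 and 355 in replicate 1. In the difference of the time changes ARG3 was lowest, at -0.82, and SER1 highest, at 0.44.

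The genes that control the pathways were read from a list of 26 control genes, all tested: 8 rose and 11 fell in U, and 6 rose and 11 fell in S, where 33.5% of all rows rose and 21.7% fell in U and 33.2% and 22.9% in S. The translation factors through which Gcn4 is controlled were lower at 12 h: all 5 subunits of eIF2B on the list fell, by -1.63 to -0.61 in U and -1.77 to -0.82 in S, as did the 3 subunits of eIF2, by -1.51 to -1.27 in U. GCN3, the regulatory subunit of eIF2B, fell by -1.63, and GCN1, an activator of Gcn2, by -1.48 in U (limma, adjusted p = 0.000275 and 0.000453). GCN2, the gene of the kinase itself, went the other way. It rose by 0.66 in U (limma, adjusted p = 0.0204) and had 0.41 in S without passing the test (adjusted p = 0.0902). ARO80, the activator of genes of aromatic amino acid breakdown, rose by 2.12 and ARG82, an inositol polyphosphate kinase needed for arginine control, by 1.56. Of 7 further biosynthetic enzymes tested, TRP1 and LYS5 rose in both strains, by 1.28 and 1.32 in U, and none fell. The count that rose is near the share of all rows given above. With 7 genes, the absence of falls is no result about these enzymes.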

How the data were processed

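Per the submitters' processing notes, the tools were TopHat2 2.1.1 and Cufflinks on the build sacCer3, after bcl2fastq 1.8.2 and FastQC 0.10.1; their settings and the gene annotation are not given in these sources. Per the labels, the libraries came from a stranded mRNA kit and hot phenol RNA. The authors deposited FPKM, 1 value per gene and library; depth is unknown, so no counting interval can be given. From these, log2(FPKM + 1) was analysed as it stands in the 6339 rows that averaged 1 FPKM or more. One limma 3.58.1 fit in R 4.3.3 (4 group means, trend, 4 residual and 2.33 prior degrees of freedom) gave 5 comparisons, two-sided, with Benjamini-Hochberg adjustment over all rows and calls at an adjusted p under 0.05. Fold changes are on the log2(FPKM + 1) scale, which understates those of low genes. The steps were tested on simulated data. The members and lists, the tests and the alternatives were chosen with earlier results of these data known. Library values are given for GCN4, the duplicated pairs and the highest and lowest member of each pathway in U, others being named as chosen later. Rows were matched by ID to R64 for 6048 of 7126; 3 rows that carry a member's name but another feature's ID were kept apart. Alternatives were another pseudocount (0.1), other filters (none, 10 FPKM), median-of-ratios and quantile scaling, replicate blocks, no trend, the groups compared alone, and libraries left out.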

Additional observations from a re-analysis of the deposited data

How the results depend on the processing

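The count of members that rose in U, 5, became 3 with median-of-ratios scaling and ran from 2 to 7 as single libraries were left out, with 2 without replicate 1 of U at 6 h or of U at 12 h and 3 without replicate 2 of U at 12 h or either S library of 12 h; in S, 3 became 2 to 4. The replicate numbers are not tied to a shared culture or day by the labels, and each comparison holds only 2 pairs. Deviations of same-numbered libraries correlated at 0.64 between U and S at 6 h and 0.38 at 12 h over all rows (0.94 and 0.85 over the members), and at 0.01 to 0.08 across times (0.08 to 0.29 over the members). With the replicate block 6 members rose in each strain and 35 fell in U and 36 in S, and ARG3 passed as higher in both (limma, adjusted p = 0.00107 and 0.00363); with a replicate block within each time 9 rose and 44 fell in each. The cause of these differences was not tested. Apart from the calls with median-of-ratios scaling, the shares of all rows that fell under the alternatives are not given. That includes the alternatives with libraries left out. A change in the count of members may therefore follow a change over all rows. Over all alternatives the count that fell ran from 24 to 44 in both strains, 23 members that fell kept the call under all 18 settings in each strain, and so did BAT2 and GCN4 among those that rose. No alternative turned a called change of a member around. The comparisons of the strains stayed at 0 calls throughout. The unknown read depth limits how small a difference between low values such as ARG3 at 6 h can be read.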

Other observations

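Genes for uptake and breakdown of amino acids were read from lists of their own. Of 18 amino acid permease genes, 9 rose and 1 fell from 6 h to 12 h in each strain, where 33.5% of all rows rose and 21.7% fell in U and 33.2% and 22.9% in S, with a median log2 fold change of 0.61 in U and 0.47 in S. PUT4, a proline permease, stood at 1.25 and 0.81 FPKM in U at 6 h and at 296 and 702 at 12 h, a change of 7.82 ± 0.59 on the log2(FPKM + 1) scale (limma, adjusted p = 0.000229). DIP5, AGP2 and GAP1, the general permease, rose by 3.42, 3.31 and 3.18 in U, and AGP3 and AGP1 by 2.63 and 2.57. HIP1, the histidine permease, was the gene that fell, by -1.11.

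Of 13 breakdown genes tested, 8 rose and 2, ASP1 and AAT1, fell in each strain, against the same shares of all rows, and the median change was 1.67 in U and 1.72 in S. PUT1, proline oxidase, rose by 5.71 and GDH2, the glutamate dehydrogenase that releases ammonium, by 4.22 in U, while the 3 proline synthesis genes fell. ARO10, a decarboxylase of aromatic and branched-chain keto acids, rose by 3.28, CHA1, serine deaminase, by 2.66 and UGA2 by 2.42, and ASP1, asparaginase, fell by -2.38. The replicates of 12 h differed for ARO10, at 218 and 967 FPKM in U.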
